A study of Vitis vinifera with 40 samples.

Results

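LHCA2 (VIT_01s0010g03620) encodes a chlorophyll-binding protein of the light-harvesting antenna of photosystem I, and this account follows LHCA2 together with the 150 grapevine genes whose transcript levels ran most closely in parallel with it during somatic embryogenesis (SE). The members were selected on measured values. Raw counts of all 40 libraries were divided by DESeq2 median-of-ratios size factors and taken as log2(normalized count + 1), genes with a mean normalized count of at least 100 in any stage were kept, and the 150 genes with the highest Pearson r with LHCA2 were taken. LHCA2 itself was left out. They were drawn from 19038 genes with such a stage mean, out of 29971 genes in the table. All similarity to LHCA2 in time course was therefore built in by the choice, and the levels and stage differences of the members are given below as a description.

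The libraries came from somatic embryos of Vitis vinifera, cultivar Malvasia Istriana, which were raised from anthers and their filaments and pooled for each library. Early induction (EI), preglobular (PG), globular 1 (G1) and globular 2 (G2) cultures were labelled as kept on auxin in constant dark, and heart (H), torpedo 1 (T1), torpedo 2 (T2) and cotyledonary 1 (C1) embryos on hormone-free medium, also in constant dark. Cotyledonary 2 (C2) embryos were on hormone-free medium in long day, and seedlings (S), seedlings with epicotyl (EP) and juvenile plants (JP) were labelled as on medium with gibberellin in long day. Per the study's methods, the induction medium held a cytokinin (BAP) beside the auxins 2,4-D and NOA, and the germination medium held the auxin IAA beside gibberellin. C2 and EP had 5 libraries and each other stage had 3, so that 24 libraries were from the dark and 16 from long day. Light, medium and developmental stage changed together in this series, and from C1 to C2 the change of light and the change of stage cannot be told apart.

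Light-harvesting complex proteins of photosystem I bind chlorophyll and carotenoids in the thylakoid membrane and pass excitation energy to the reaction centre. In angiosperms, chlorophyll synthesis needs light at one enzymatic step, and nuclear genes for antenna proteins are typically low in dark-grown tissue and rise as chloroplasts form. The identifiers of the members were paired with no gene name in the sources used here, so they are described by identifier, and what a member encodes is given only where a Gene Ontology (GO) annotation was at hand.

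Total counts per library ranged from 13774534 to 68058022. The 2 C2 libraries replicates 4 and 5 stood apart from replicates 1 to 3 for the members, and EP replicates 4 and 5 stood apart from replicates 1 to 3 in depth (48074612 and 68058022 counts against 13774534 to 17279403) and in composition. The study's mapping table gives another read length for C2 and EP than for all other stages, which cannot be told apart from stage. Counts of called members that rest on these libraries are given with and without them. So are the log2 fold changes of LHCA2 and of several of the genes named at these steps. Other values, among them most counts for the annotation lists and the counts of members without overlap, are with all libraries unless stated.

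LHCA2 was close to absent in the dark. Its normalized count had a lowest value of 0, a median of 4.09 and a highest value of 24.8 over the 24 dark libraries, and the mean was 7.02 ± 6.95 (SD, n = 24). The C1 libraries held 10.7, 3.22 and 10.5. In C2 the values were 286, 236, 317, 43.3 and 29.1, so that every C2 library lay above every dark library, and replicates 4 and 5 lay several-fold below the other C2 libraries. In S the values were 1200.1, 1608 and 2344, all above C2. In EP they were 15869, 16191, 16399, 16684 and 13392, and in JP 29986, 12621 and 30206.5. The S and EP libraries did not overlap, whereas JP replicate 2 lay below all 5 EP libraries. The log2 fold changes (± SE) estimated by edgeR were 4.37 ± 0.98 from C1 to C2, 3.25 ± 0.68 for the next step to S, 3.13 ± 0.31 between S and EP and 0.62 ± 0.33 between EP and JP. In such pools of whole embryos or plantlets, fewer cells of a type and less RNA per cell cannot be told apart. Without C2 replicates 4 and 5 the first of these was 4.93 ± 0.52 and the second was 2.59 ± 0.25, and without EP replicates 4 and 5 the third was 3.18 ± 0.25 and the last was 0.55 ± 0.32.

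**Figure D1:**
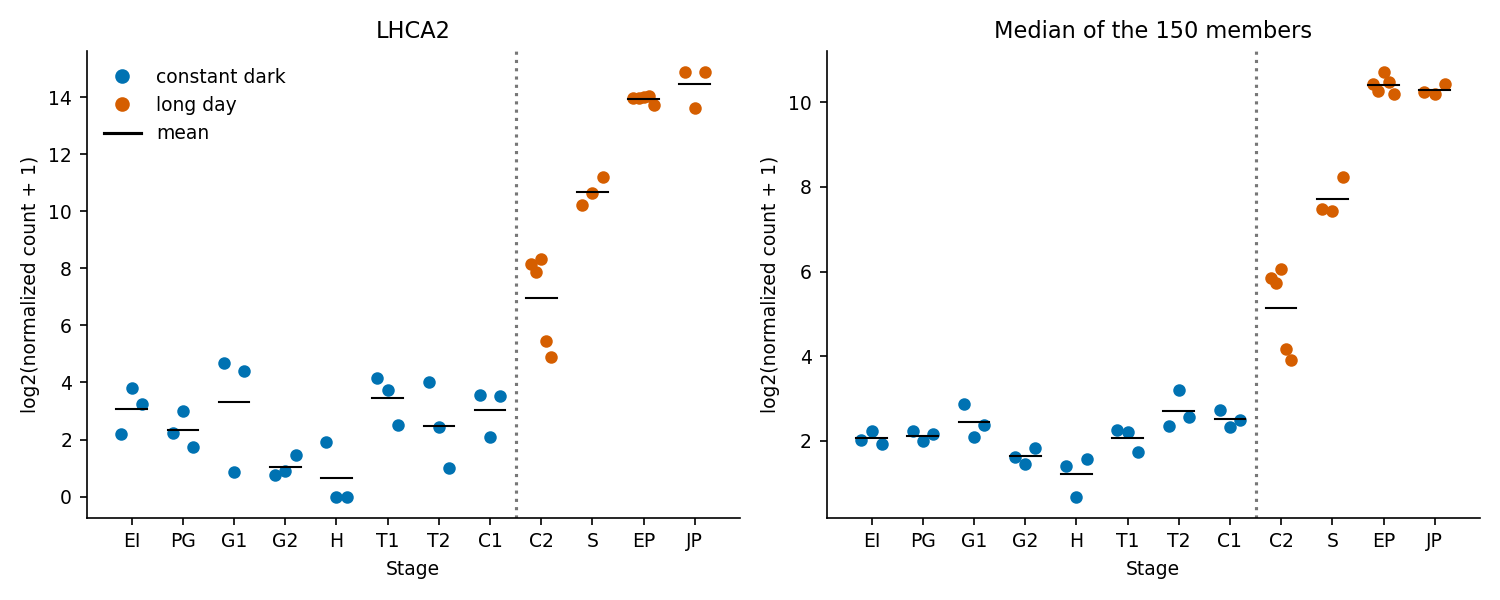
Level of LHCA2 (left) and median level of the 150 members (right) in each of 40 libraries, as log2(normalized count + 1), by stage; points are libraries, lines are stage means, and the dotted line separates constant dark from long day. LHCA2 stays at or below 24.8 normalized counts in the dark, and both panels show C2 replicates 4 and 5 below the other C2 libraries.

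The members closest to LHCA2 had r of 0.981 (VIT_14s0081g00060), 0.980 (VIT_12s0057g00630), 0.979 (VIT_17s0000g06350), 0.979 (VIT_10s0003g02900) and 0.978 (VIT_14s0068g00680), followed by VIT_12s0028g01080, VIT_01s0137g00210, VIT_06s0004g03050, VIT_06s0080g00920 and VIT_12s0059g01050, the last with 0.973. At the edge of the list, VIT_11s0103g00100 was the last one in with 0.9417, and VIT_11s0037g00450, VIT_02s0087g00400 and VIT_18s0122g00290 were the first ones out with 0.9414, 0.9413 and 0.9412. The list thus ended without a gap. Over all genes kept, the median r was 0.029, and 2 genes had an r as far below 0 as the members were above it.

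VIT_14s0081g00060, at rank 1, shows how the closest members behaved. Its normalized counts in C1 were 10.7, 0.536 and 2.47. The C2 values were 96.1, 93.6, 147, 20.2 and 22.0, and those of S were 810.0, 856 and 1478. EP had 12655, 12857, 19907, 7764 and 4541, and JP had 11916, 4718 and 9861. As with LHCA2, each of C2, S and EP lay above the stage before it with no overlap of libraries, and C2 replicates 4 and 5 were the lowest of C2. Unlike LHCA2, EP replicates 4 and 5 were the lowest of EP. VIT_12s0057g00630, at rank 2, was lowest in the same 4 libraries of C2 and EP, with 373 and 318 in C2 against 1624 to 2233, and 33367 and 25199 in EP against 81761 to 104056.

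Most members were barely detected before C2. In 79 of the 150, every dark stage had a mean normalized count below 10, and in 10 of these every dark stage was below 1. In 37 members the highest dark stage mean lay between 10 and 100, and in 34 it was at least 100. The 79 and the 37 members passed the filter on stage means only through a long-day stage. No member was without counts in all dark libraries. The median over members of the stage mean lay between 1.18 and 5.92 in the 8 dark stages, was 45.5 for C2 and 210.04 in S, and was 1417 in EP and 1317 in JP. The highest of their dark stages was T2 in 59 members, C1 in 32, PG in 19 and G1 in 18, whereas it was H in 0. The lowest stage mean of LHCA2, by which they were chosen, was also that of H (0.923), though its G2 mean was as near 0 (1.10).

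The rise from the mean of the dark libraries to the mean of JP on the log2(normalized count + 1) scale had a median of 7.54 over the members. It ranged from 3.53 in VIT_00s2608g00010 to 14.00 in VIT_06s0004g05180. Members below 10 in every dark stage had a median rise of 8.01 (n = 79), and members of at least 100 in a dark stage had a median of 6.62 (n = 34). These classes were set by the dark level from which the rise was taken, so nothing is read from their difference. The pseudocount understates the rise of genes near 0 in the dark. The stage of highest mean was JP in 85 members and EP in 65, and none of the 150 was highest in another stage.

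**Figure D2:**
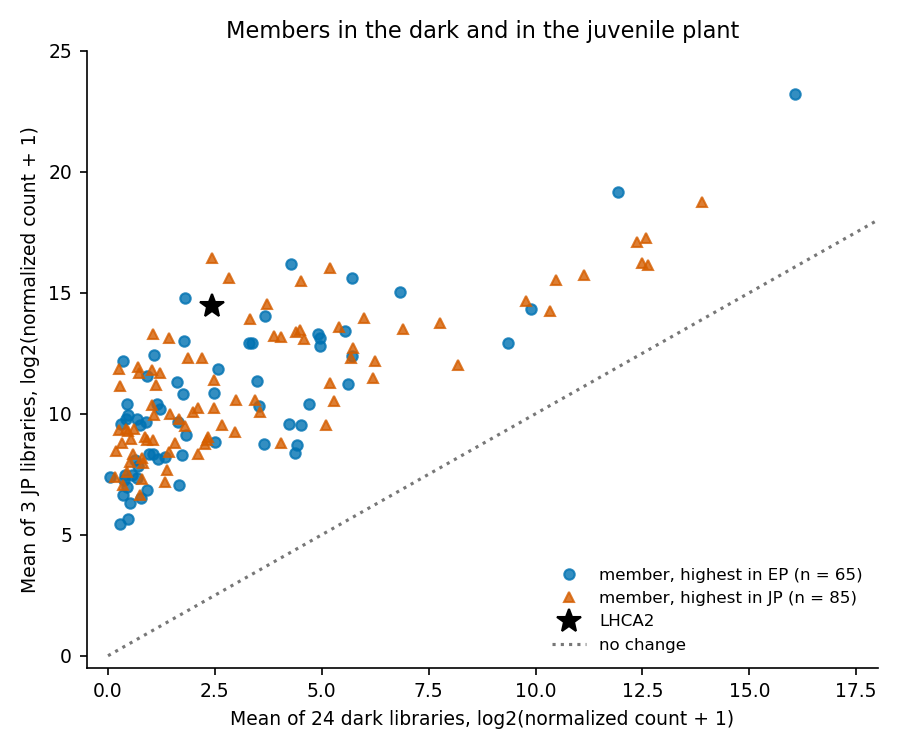
Each member's mean of 24 dark libraries (horizontal) and of 3 JP libraries (vertical), both as log2(normalized count + 1); symbols give the stage of highest mean (EP, n = 65; JP, n = 85), the star is LHCA2 and the dotted line marks no change. All members lie above the line, by 3.53 to 14.00 on the log2 scale.

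Within stages, where the difference between stages is removed, the members followed LHCA2 more loosely. The r of deviations from stage means had a median of 0.44 over members and ranged from -0.21 (VIT_09s0002g05340) to 0.76 (VIT_12s0057g00630), and it was above 0 in 147 members. The median r was 0.96 over the 16 long-day libraries and 0.31 over the 24 dark libraries. These correlations share libraries, depth and size factors with the r that chose the members, and dark values near 0 counts are dominated by counting error. Ranking genes by r over the long-day libraries alone returned 62 of the 150 members, and by Spearman's rho over all 40 libraries it returned 68.

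To place the members in time, the level of each stage was expressed as a percent of the member's own log2 rise from the dark mean to the JP mean. The median over members was 33.8% in C2, 65.4% in S and 97.8% in EP. The C2 libraries gave medians of 40.3%, 41.3%, 45.5%, 20.9% and 21.1% in replicates 1 to 5, and without replicates 4 and 5 the C2 median was 42.2%. The S libraries gave 62.8%, 63.0% and 71.3%, with replicate 3 above the others, and the EP libraries gave 96.1% to 101%. Members differed in how early they approached their JP level. VIT_18s0041g00630 had reached 61.3% of its rise in C2 and VIT_11s0037g01170 13.3%. VIT_13s0067g03830 was at 119% in S and 158% in EP, above its level in JP, and VIT_01s0011g03720 was at 36.7% in S and 77.7% in EP.

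**Figure D3:**
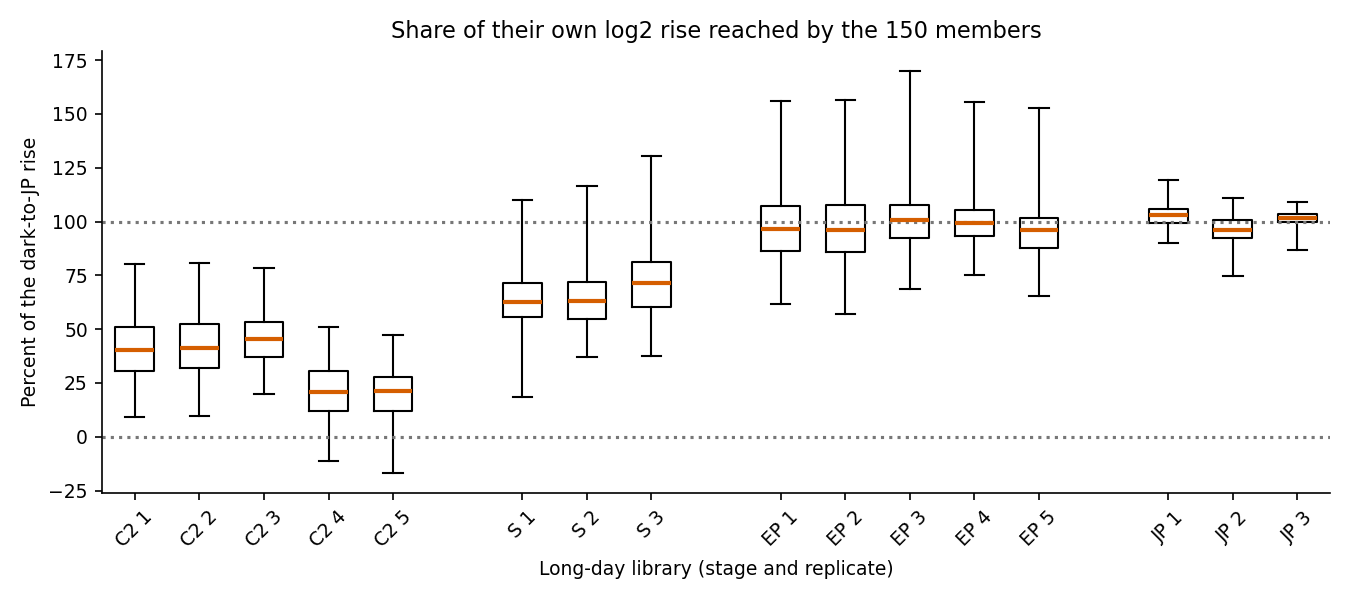
Percent of their own dark-to-JP rise on the log2 scale that the 150 members had reached in each long-day library; boxes give the quartiles and the median (orange) over members, whiskers the lowest and highest member, and the dotted lines mark 0 and 100%. Medians run from 20.9% in C2 replicate 4 to 45.5% in C2 replicate 3, and all EP libraries lie between 96.1% and 101%.

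A total of 131 members had both C2 replicates 4 and 5 below replicates 1 to 3, compared with 26.2% of all 19038 genes. The mean of C2 replicates 1 to 3 was a median of 3.14 times that of replicates 4 and 5 over the members, without a pseudocount. Over all genes kept it was 1.01 times with a pseudocount of 1, so the 2 values are not strictly alike. The labels give no difference between these libraries. In JP, replicate 2 was the lowest of 3 in 93 members, and in S, replicate 3 was the highest of 3 in 109. The shares of all genes for these JP and S counts were not computed. LHCA2 itself was lowest in C2 replicates 4 and 5 and JP replicate 2, and highest in S replicate 3. Because r was taken over the same libraries, these replicate patterns of the members were partly built in by the choice. EP replicates 4 and 5 lay above EP replicates 1 to 3 in 35 members and below them in 52, compared with 33.1% and 30.4% of all 19038 genes, so the EP libraries did not part in one direction.

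Every C2 library lay above every dark library in 45 members, compared with 3.2% of the 19038 genes kept. S lay wholly above C2 in 124 members (21% of all genes), EP wholly above S in 129 (21.2%) and JP wholly above EP in 16 (9.44%). LHCA2 showed the first 3 of these separations and not the last. Because the members were chosen for a time course of this shape, nothing is read from the excess over all genes.

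Counts of members called by edgeR's quasi-likelihood test, with a Benjamini-Hochberg adjusted p below 0.05 over all genes tested, followed the same order. From G2 to H, when embryos left the induction medium in the dark, only 53 members had enough counts to be tested. Of these, 22 were called lower and 1 higher, against 28.9% lower and 27.6% higher over all genes. The H mean lay below the G2 mean in 108 of the 150 members and was the lowest stage mean, or tied with it, in 97, while 30 members had no count in any H library. LHCA2 had its own lowest stage mean in H (0.923), but G2 was as near 0 (1.10), with raw counts of 5, 0 and 0 in H and 1, 1 and 2 in G2. The choice of members used these libraries, and how far it built in these counts was not tested. Their shares over all genes were not computed. Fitted together with all other stages, 7 members were called lower and 1 higher, and without G2 replicate 2 the counts were 14 and 1.

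The members with the largest called falls from G2 to H were VIT_10s0003g02890 and VIT_12s0035g00270. VIT_10s0003g02890 had 31.1, 29.8 and 13.8 normalized counts in G2 and 9.42, 0.609 and 3.48 in H, a log2 fold change of -2.49 ± 0.69. VIT_12s0035g00270 had 67.7, 97.4 and 82.7 in G2 and 26.6, 9.75 and 19.9 in H, a log2 fold change of -2.19 ± 0.36. In neither gene did the libraries of G2 and H overlap. The member called higher was VIT_09s0002g04260, with 20.7, 15.8 and 29.3 in G2 and 54.3, 49.4 and 69.7 in H (log2 fold change 1.33 ± 0.28).

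From C1 to C2, with the change from constant dark to long day on hormone-free medium, 66 of 113 tested members were called higher and 0 lower, against 9.22% higher and 13.1% lower over all genes. The remaining 37 members did not pass the filter on low counts, and a member that passed only through its C2 libraries had to differ. The count was 120 by DESeq2, 134 when all stages shared one edgeR model and 88 without C2 replicates 4 and 5, where 27.8%, 38.6% and 21.9% of all genes tested were called in either direction. Leaving out 1 library at a time gave 0 for C1 replicate 3 and for C2 replicates 1 and 2, 14 for C1 replicate 2 and 42 for C2 replicate 3. At an unadjusted edgeR p below 0.05 were 77 to 98 of the 96 to 128 members tested in these fits. The same held for 6843 to 8483 of the 21811 to 23139 genes tested, and the members were chosen on these values. Calls were also few over all genes, with 7 genes of any kind called without C1 replicate 3, 14 each without C2 replicate 1 and without C2 replicate 2, 4.72% of all genes without C1 replicate 2 and 17.4% without C2 replicate 3. None of these fits called a member lower. The fits that called only 7 or 14 genes of any kind called 0 of all genes lower. Their lack of lower members therefore says nothing about the members. The C2 mean was above every dark stage mean in all 150 members. LHCA2, by which they were chosen, had the same order of means, so nothing is read from this count.

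VIT_01s0011g02720 had no count in C1 and normalized counts of 85.1, 59.7, 82.2, 11.1 and 8.02 in C2. Set against a floor of 3 counts over the C1 libraries, it was at least 72.1-fold higher in C2, a bound that covers counting error only. VIT_03s0063g02360 had 2.13, 0.536 and 0.618 in C1 and 372, 381, 160.02, 4.03 and 10.02 in C2, with a log2 fold change of 7.21 ± 1.80, or 7.86 ± 0.66 without C2 replicates 4 and 5. Both genes thus had C2 replicates 4 and 5 far below the other C2 libraries and still above C1.

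From C2 to S, when the embryos were moved to germination medium and germinated in long day, 116 of 147 tested members were called higher and 0 lower (16.1% higher and 11.5% lower over all genes). Leaving out S replicate 3 gave 76, with 11.9% of all genes called in either direction, and leaving out C2 replicates 4 and 5 gave 112 higher and 1 lower, with 30.4% of all genes called. The largest called rises were those of VIT_09s0002g05280 and VIT_09s0002g05350, the outer genes of a run of members with close identifiers on chromosome 9. VIT_09s0002g05280 had 2.43, 4.84, 13.2, 0 and 11.02 normalized counts in C2 and 328, 291 and 1553 in S, a log2 fold change of 6.84 ± 0.79, or 6.68 ± 0.93 without C2 replicates 4 and 5. VIT_09s0002g05350 had 10.9, 21.0, 16.1, 6.05 and 6.01 in C2 and 738, 515 and 2059 in S (6.58 ± 0.54, or 6.08 ± 0.63 without these libraries). In both genes S replicate 3 was the highest.

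From S to EP, 125 of 150 members were called higher and 0 lower (16.1% higher and 13.9% lower over all genes). Scaling by library totals alone gave 68, with 12.3% of all genes called in either direction, and leaving out EP replicates 4 and 5 gave 129, with 42.6% of all genes called. VIT_06s0004g05180 rose most, from 229, 515 and 530 normalized counts in S to 10194, 9751, 23725, 78766 and 65872 in EP, a log2 fold change of 6.41 ± 1.03, or 5.03 ± 0.51 without EP replicates 4 and 5. Here EP replicates 4 and 5 were the highest of EP. VIT_00s0181g00180 went from 49.8, 91.0 and 135 in S to 8943, 9094, 5024, 4247 and 4335 in EP (6.03 ± 0.52, or 6.31 ± 0.44 without EP replicates 4 and 5, which were the lowest of EP).

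From EP to JP the list no longer moved one way. Of 150 members, 6 were called higher and 5 lower, near the shares of all genes (2.46% higher and 3.08% lower). Without EP replicates 4 and 5 the calls were 41 higher and 28 lower, and the share of all genes called rose as well, to 46.6%. Without a single library of EP or JP, the count ranged from 1 (without JP replicate 1, 2 or 3) to 18 (without EP replicate 5), and without EP replicate 1 or 2 it was 3 or 4. The single-library fits called 0.258% to 11.7% of all genes. DESeq2 on the same libraries called 19 higher and 13 lower, with 10.8% of all genes called.

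VIT_00s2086g00010 had 4546, 4415, 8047, 12352 and 8202 normalized counts in EP and 27253, 19424.5 and 25670.2 in JP (log2 fold change 1.69 ± 0.37). VIT_07s0104g01390 went from 33.2, 49.2, 70.6, 77.6 and 84.3 to 179.8, 142 and 182 (1.38 ± 0.31). In the opposite direction, VIT_13s0067g03830 went from 325, 331, 541, 319 and 293 to 54.2, 45.5 and 32.3 (-3.03 ± 0.32), and VIT_12s0028g02850 from 26996, 26568, 24003, 9770 and 8549 to 2109, 4304 and 3115 (-2.60 ± 0.53). In all 4 genes the libraries of EP and JP did not overlap. Without EP replicates 4 and 5 the log2 fold changes were 2.06 ± 0.29, 1.71 ± 0.31, -3.20 ± 0.31 and -3.05 ± 0.29 in the same order.

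**Figure D4:**
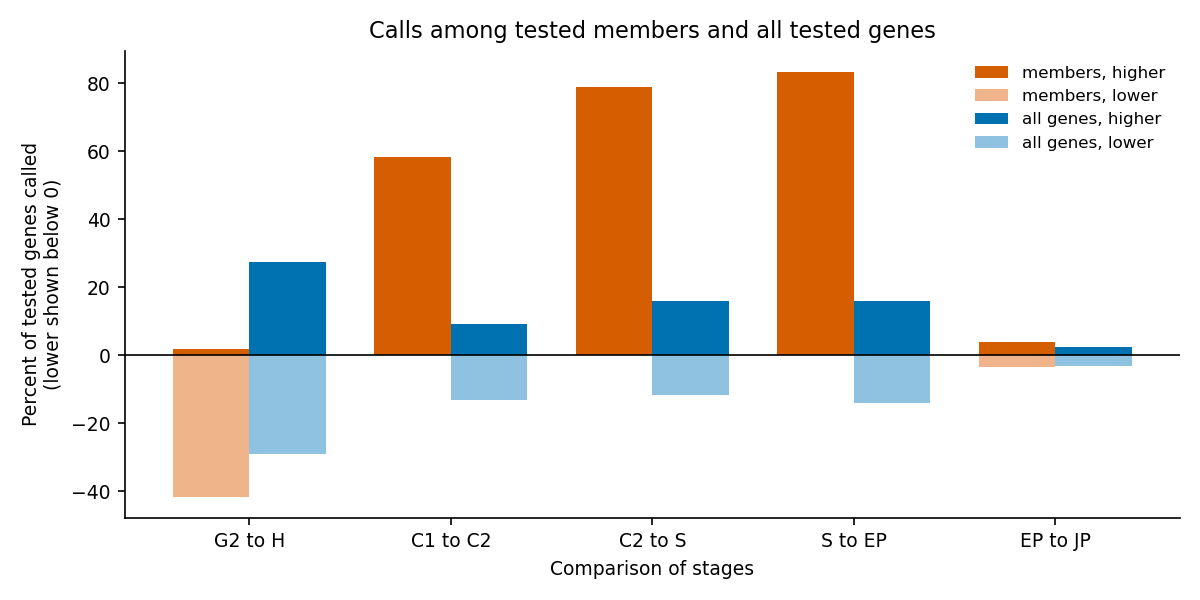
Percent of tested genes called by edgeR (Benjamini-Hochberg adjusted p below 0.05) in each comparison of stages, for members (orange) and all genes (blue); calls lower in the later stage are drawn below 0. Tested members number 53, 113, 147, 150 and 150 from left to right, and members were called higher in 66, 116 and 125 cases in the 3 comparisons from C1 to EP.

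A small number of transcripts carried most of the reads of the list. Together, the members took 0.435% to 1.19% of all counts in the dark libraries. In C2 they took 1.50%, 1.52%, 2.09%, 0.732% and 0.682%, so that replicates 4 and 5 were within the range of the dark. The share was 5.19% to 5.30% in S, 30.2%, 26.3%, 23.3%, 22.2% and 15.6% in EP and 40.05%, 30.9% and 31.4% in JP.

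One member, VIT_13s0019g02630 (rank 72), held most of this in every long-day library. In the dark this was not so throughout. In C1 replicates 2 and 3 it had 0.209% and 0.222% of the counts, against 0.469% and 0.464% for all members. It had 0.209% to 0.813% of the counts of the dark libraries, 3.47% to 3.85% in S, 26.4%, 22.9%, 19.9%, 14.2% and 8.98% in EP and 31.7%, 25.4% and 24.2% in JP. These are shares of counts and not levels per length, since no gene lengths were at hand. In EP, the libraries with the lowest shares were replicates 4 and 5. Its log2 fold change from S to EP was 3.13 ± 1.82 with all EP libraries and 3.71 ± 0.62 without these.

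Without VIT_13s0019g02630, the other 149 members took 0.188% to 0.403% of the remaining counts in the dark, 0.290% to 0.663% in C2 and 1.51% to 1.79% in S. In EP they took 5.07%, 4.50%, 4.26%, 9.27% and 7.30%, and in JP 12.2%, 7.46% and 9.59%. EP replicates 4 and 5, the lowest of EP for VIT_13s0019g02630, were thus the highest of EP for the summed share of the rest. This did not hold member by member. In normalized counts, these 2 libraries lay above EP replicates 1 to 3 in 35 members and below them in 52. VIT_11s0052g01680, with the next largest share, was also lowest there, with 0.949% and 0.569% of all counts against 1.01% to 1.58%.

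**Figure D5:**
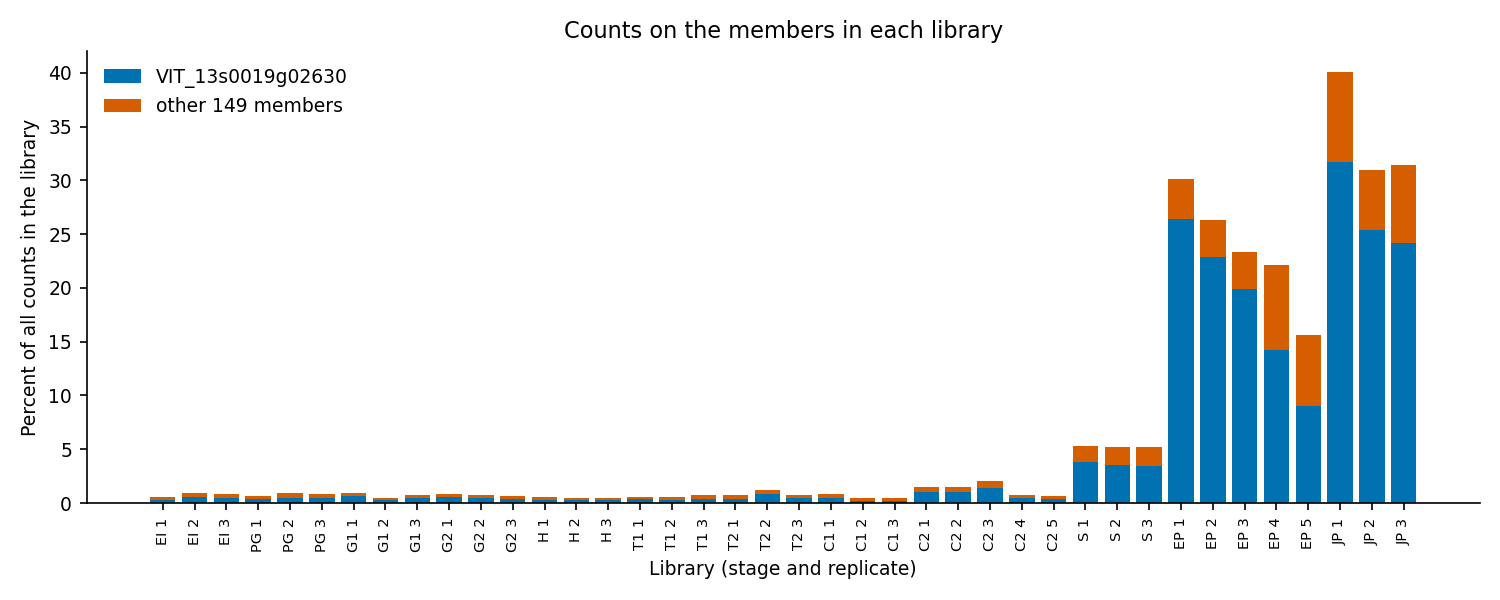
Percent of all counts on the members in each of 40 libraries, with VIT_13s0019g02630 in blue and the other 149 members stacked above it in orange. The total is 0.435% to 1.19% in the dark libraries and reaches 40.05% in JP replicate 1, and the blue part falls to 8.98% in EP replicate 5.

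VIT_11s0052g01680 (rank 46) followed VIT_13s0019g02630 at a near-constant ratio. Its counts were 0.0481 to 0.0756 of those of VIT_13s0019g02630 in all 40 libraries, with a median of 0.0595. The SD of the log2 ratio to VIT_13s0019g02630 over libraries was 0.15, and the next smallest among the members was 0.73 (VIT_11s0037g00530). Whether these 2 genes shared reads was not tested, because no sequence was at hand and the sources used here do not say how the counting treated reads that match several genes. Their values are therefore uncertain as separate measurements. Ratios between other members were not computed. Some of these also had similar stage means, such as VIT_16s0013g00330 and VIT_07s0129g00790. Their means were 46074 and 39684 in S, 91145 and 85675 in EP, and 162000 and 147519 in JP. Whether they or other members shared reads was not tested either.

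Size factors and library totals gave different pictures of the long-day stages. The total count per unit of size factor, in units of 1000000 counts, was 15.2 to 22.1 in the dark libraries, 63.8, 69.4 and 64.9 in EP replicates 1 to 3, 25.5 and 19.6 in EP replicates 4 and 5, and 32.4 to 41.6 in JP. Scaling by totals alone moved the median log2 fold change of all genes from 0.011 to -0.71 from C1 to C2. On that scale the median over the tested members was 1.65, against 2.36 with TMM factors, and 48 members were called higher and 0 lower.

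Among the 150 members, 4 were in the part of the study's GO annotation at hand, which covers 1075 genes. None of the 4 carried any of the 9 GO terms for photosynthesis, thylakoid, chloroplast or response to light that were looked for. They are named here after their values were seen, and the annotation of the other 146 was not analysed here.

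VIT_11s0118g00780 (rank 17) is annotated with ubiquitin-protein transferase activity, the step that attaches ubiquitin to target proteins. Its normalized counts were 6.40, 3.75 and 3.09 in C1, 54.7, 45.2, 60.2, 28.2 and 25.05 in C2, 133, 129 and 245 in S, 974, 1050.2, 1945, 1836 and 1700.5 in EP and 2970.1, 3434 and 3437 in JP. From C2 on, each stage lay above the one before it without overlap, JP over EP included. The log2 fold change in that last step was 1.13 ± 0.27, or 1.28 ± 0.27 without EP replicates 4 and 5.

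VIT_12s0034g02240 (rank 99) is annotated with voltage-gated potassium channel activity, the movement of potassium ions across membranes, and with response to abscisic acid. It had 14.9, 1.61 and 7.42 normalized counts in C1, 77.8, 82.3, 109, 47.4 and 22.04 in C2, and 81.6, 131 and 117 in S. In EP the values were 619.8, 545, 772, 1821 and 2185, and in JP 1878, 1274 and 1519.8. C2 and S overlapped (log2 fold change 0.72 ± 0.44, or 0.28 ± 0.26 without C2 replicates 4 and 5), and EP replicates 4 and 5 lay above the other EP libraries.

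VIT_01s0011g03180 (rank 73), annotated as an amino acid transporter of the plasma membrane, had 5.69, 0 and 4.33 normalized counts in C1, 18.2, 17.8, 26.4, 11.1 and 7.01 in C2 and 55.7, 44.03 and 85.8 in S. It then had 458, 344, 363, 279 and 292 in EP and 457, 432 and 432 in JP. The EP and JP libraries overlapped, since EP replicate 1 was above all of JP.

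VIT_01s0011g03720 (rank 129) is annotated with DNA-binding transcription factor activity and with regulation of the synthesis of brassinosteroids, plant steroid hormones. It was late among the members. Its normalized counts were 9.73, 9.68, 7.34, 4.03 and 6.01 in C2 and 7.96, 8.81 and 9.03 in S, so that C2 and S overlapped. They rose to 62.7, 26.8, 127, 154 and 95.8 in EP (log2 fold change 3.38 ± 0.59) and were 348, 163 and 295 in JP (1.50 ± 0.46, or 1.88 ± 0.49 without EP replicates 4 and 5), all above EP.

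By their identifiers, members lay on 18 numbered chromosomes, with 14 on chromosome 12, 12 on chromosome 7, 11 each on chromosomes 1, 13 and 18, and 0 on chromosome 15, and 8 carried the field used for unplaced sequence. In the order of identifiers in the table, 10 pairs of consecutive members were at most 5 identifiers apart and 4 pairs were directly adjacent. Closely spaced genes in a plant genome are often duplicates, and whether these pairs share reads was not tested.

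Among these, VIT_09s0002g05280, VIT_09s0002g05320, VIT_09s0002g05340 and VIT_09s0002g05350 form a run on chromosome 9. All 4 had C2 means of 4.81 to 14.7 normalized counts and S means of 129 to 1104, and all were highest in EP. The neighbours VIT_01s0011g02710 and VIT_01s0011g02720 were both highest in JP, with means of 3942 and 3707. VIT_12s0028g02840 and VIT_12s0028g02850 were both highest in EP, with means of 5776 and 19177, and lower in JP, with 1390.2 and 3176. VIT_10s0003g02890 and VIT_10s0003g02900 were highest in EP and differed in the dark, with dark means of 91.2 and 3.71.

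For comparison, genes annotated to photosynthesis or thylakoid in the same part of the GO table, none of them members, were tested in the same edgeR fits. These 27 genes were taken by annotation and not by level. From C1 to C2, 2 of 24 tested genes rose and 2 fell, against 9.22% and 13.1% of all genes, with a median log2 fold change of -0.07. On moving to S, 5 of 23 rose and 2 fell, against 16.1% and 11.5% (median 0.15). Between S and EP 6 of 23 rose and 0 fell, against 16.1% and 13.9% (median 0.38). Between EP and JP edgeR called 0 of 23, against 2.46% higher and 3.08% lower over all genes, and 3 were called by DESeq2. At an unadjusted edgeR p below 0.05 were 5 of the 23, against 4936 of all 21615 genes tested. From G2 to H 5 of 23 rose and 10 fell, against 27.6% and 28.9% (median -0.32). The 4 calls from C1 to C2 were lost without C1 replicate 3, C2 replicate 1 or replicate 2, when at most 14 of all genes were called, and with library totals alone 13 genes were called lower and 0 higher. For S to EP, 2 or 3 genes were called when an S library was left out, and with library totals alone 1 was called lower and 0 higher. The table at hand is the first part of a longer one, so these counts do not describe all photosynthesis genes of grapevine.

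VIT_18s0164g00030, annotated to photosynthesis and the chloroplast thylakoid membrane, was 1 of the 2 that rose from C1 to C2. Its normalized counts were 77.5, 11.8 and 45.1 in C1, 229, 216, 142, 141 and 125 in C2 and 316.5, 449 and 396 in S. The log2 fold change was 1.84 ± 0.54 from C1 to C2 (edgeR adjusted p = 0.041) and 1.20 ± 0.23 from C2 to S (edgeR adjusted p = 0.0067). Without C2 replicates 4 and 5 the first of these was 1.95 ± 0.65 and missed the threshold (edgeR adjusted p = 0.073). The libraries of C1, C2 and S did not overlap. The other, VIT_08s0040g01400, a thylakoid gene, went from 166, 216 and 209.5 in C1 to 601, 762, 505, 396 and 388 in C2 (log2 fold change 1.31 ± 0.27, edgeR adjusted p = 0.021).

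VIT_00s0480g00030, annotated to thylakoid and chloroplast, moved the other way. It rose from G2 to H with a log2 fold change of 0.90 ± 0.25 (edgeR adjusted p = 0.020) and fell from C1 to C2 by 1.51 ± 0.46 (edgeR adjusted p = 0.047) and from C2 to S by 0.89 ± 0.26 (edgeR adjusted p = 0.032) on the log2 scale. Its normalized counts were 412, 2450.0 and 1306 in C1 and 589, 646, 382, 563 and 488 in C2, and C1 replicate 1 overlapped with C2. Without C2 replicates 4 and 5 the fall from C1 to C2 no longer passed (log2 fold change -1.57 ± 0.62, edgeR adjusted p = 0.11). VIT_13s0067g00390, a gene of the chloroplast thylakoid membrane, fell from 301, 343 and 281 in C1 to 220.1, 211, 169, 236 and 221 in C2 (log2 fold change -0.66 ± 0.19, edgeR adjusted p = 0.040).

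From C2 to S, VIT_14s0060g00850, annotated to the light reaction of photosynthesis, rose by a log2 fold change of 1.05 ± 0.26 (edgeR adjusted p = 0.016). VIT_04s0008g03600, annotated to thylakoid and response to light stimulus, fell by 0.53 ± 0.15 on the log2 scale (edgeR adjusted p = 0.026). From S to EP the largest rises in this group were those of VIT_04s0008g01770, with a log2 fold change of 2.87 ± 0.71 (edgeR adjusted p = 0.015), and VIT_17s0000g06450, with 1.92 ± 0.53 (edgeR adjusted p = 0.023), both of the chloroplast thylakoid membrane. Without EP replicates 4 and 5 these were 1.81 ± 0.50 (edgeR adjusted p = 0.023) and 1.21 ± 0.37 (edgeR adjusted p = 0.034).

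VIT_17s0000g06450 was also among those that fell from G2 to H, from 647, 679 and 608 normalized counts to 242, 221 and 299.5 (log2 fold change -1.40 ± 0.13, edgeR adjusted p = 0.00056). VIT_08s0058g00440, of the same membrane, fell from 31.1, 73.7 and 202 to 6.58, 3.66 and 23.9 (-3.19 ± 0.89, edgeR adjusted p = 0.020). VIT_04s0008g00640, annotated to thylakoid, rose from 1020.3, 992 and 925 in G2 to 1311, 1462 and 1374 in H (0.43 ± 0.08, edgeR adjusted p = 0.0044).

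Of 99 genes annotated to the chloroplast but not the thylakoid, 7 were called higher and 9 lower from C1 to C2 among 79 tested, and of 28 annotated to response to light stimulus, 3 were called higher and 3 lower among 26 tested, against 9.22% higher and 13.1% lower over all genes. From S to EP the counts were 11 higher and 7 lower among 78 tested for the chloroplast genes and 3 higher and 3 lower among 27 tested for the light response genes, against 16.1% higher and 13.9% lower over all genes. These lists hold no member.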

How the data were processed

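RNA was sequenced from 40 libraries of 12 stages, assigned to stage and replicate by their titles. Per the labels and the study's methods, rRNA-depleted paired-end reads were mapped to the grapevine 12X assembly with BBMap, and the authors deposited whole-number counts per open reading frame with no normalization. The sources used here do not say how strand, or reads matching several genes, were treated. Every count column was matched to a sample. Size factors came from DESeq2 1.42.0. Pairs of stages were tested with edgeR 4.0.16 (filterByExpr, TMM, quasi-likelihood test on the libraries of the pair, Benjamini-Hochberg over all genes tested, threshold 0.05) in R 4.3.3, and summaries and figures were made with pandas 2.3.3, numpy 2.4.6 and matplotlib 3.10.9. The SE of a log2 fold change was its size divided by the square root of the F statistic. Scripts were tested on simulated data.

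The members and lists were chosen with earlier results of these data known. Genes named are LHCA2, the 10 members of highest r, ranks 150 to 153, and in each comparison the 2 largest rises and 2 largest falls among called members and among called photosynthesis or thylakoid genes. The members with GO annotation, those with the largest share of counts, those at the extremes of a range over members and neighbouring identifiers were added after their values were seen. Of the identifiers, 0 were found in the RefSeq gene list, so no names, lengths or sequences are given. Replicate pairs differed by more than sampling noise (chi-square per degree of freedom 9.09 or more), and all were kept. The study describes the replicates as biological, while the labels do not say which cultures each came from, so p-values measure the spread between these libraries. Alternatives were another tool, model, scaling, filter and pseudocount, a replicate block, and leaving out libraries.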

Additional observations from a re-analysis of the deposited data

Results flagged for a closer look

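In EP, the normalized count of LHCA2 in replicate 5 was 13392, below the other 4 libraries at 15869 to 16684, and its gap to the nearest of them made up 0.752 of the range of the stage, above the limit of 0.71 for 5 libraries. It was 1 of 20 such checks over LHCA2, the annotated and most abundant members, the shares of counts and the percent of the rise, and chance alone is expected to give about 1 in 20. The flag rests on the DESeq2 size factors. In raw counts, LHCA2 had 46553 of 68058022 counts in replicate 5, against 4301 of 17279403 in replicate 1. By library totals, replicate 5 was thus not the lowest of EP. The check was not made with TMM factors or library totals.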

How the results depend on the processing

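Replicate numbers did not pair the samples: deviations of same-numbered libraries correlated between -0.21 and 0.23 over 15 pairs, and the libraries share only a number. With the replicate block, called members were 0 from C1 to C2, where 0 of 22462 genes were called at all, and 65 from EP to JP, where 40.4% of all genes were called. From C1 to C2, 103 of 113 tested members and 7567 of the 22462 genes were at an unadjusted edgeR p below 0.05. Called photosynthesis or thylakoid genes were 0 from C1 to C2, 3 between C2 and S, and 10 between EP and JP. The block moved none of the other counts by over 1.5 times.

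By DESeq2, called members were 120 from C1 to C2 and 32 between EP and JP, and 3 photosynthesis or thylakoid genes were called between EP and JP. In one edgeR model of all stages, called members were 8 from G2 to H and 134 from C1 to C2, and called photosynthesis or thylakoid genes were 7 from G2 to H and 4 between EP and JP. Without a filter on low counts, 2 photosynthesis or thylakoid genes were called from C1 to C2. With library totals alone, a scaling chosen after seeing the data, called members were 68 between S and EP and 2 between EP and JP, and called photosynthesis or thylakoid genes were 13 from C1 to C2 and 1 between S and EP. Without EP replicates 4 and 5, also chosen after seeing the data, 69 members and 9 photosynthesis or thylakoid genes were called between EP and JP. The cause of these differences was not tested.

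With 1 library left out at a time, called members ranged from 15 to 23 (G2 to H), 0 to 76 (C1 to C2), 76 to 124 (C2 to S), 92 to 127 (S to EP) and 1 to 18 (EP to JP). Called photosynthesis or thylakoid genes ranged from 11 to 15, 0 to 6, 4 to 7, 2 to 6 and 0 to 1 in the same order. The list itself shared 138 to 149 members with the lists without 1 library, 68 by Spearman's rho and 62 over the long-day libraries alone. The percent of the rise reached in S was 58.4 with a pseudocount of 10, and with CPM of the library total the percents were 14.5 in C2, 53.1 in S and 90.9 in EP. With 1 library left out they ranged from 30.6 to 36.9 in C2, 63.6 to 66.6 in S and 94.1 to 98.3 in EP. Of the log2 fold changes of single genes, 136 fits fell short of the threshold that was passed with all libraries, 13 passed it newly, 621 stayed on their side and 0 changed direction. Dark levels of most members rest on few counts, which limits r in the dark.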
